A study of Mus musculus with 6 samples.

Results

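The solute carrier family 25 (SLC25) genes examined here are the protein-coding genes of the mouse whose GENCODE M21 symbol is *Slc25a* followed by a number, with *Slc25a20* and *Slc25a44* left out by the rule. By Ensembl identifier 45 such genes were found among the 54232 genes of the count tables. Transcripts were measured by stranded mRNA sequencing of the heart ventricle in 6 wild-type (WT) C57BL/6J mice on western diet (WD), a diet rich in fat and sucrose. Treatment lasted 3 weeks and followed 15 weeks of diet. In the WD + Tributyrin group, 3 mice were needle-fed Tributyrin, a triglyceride that releases butyrate, at 5 g/kg body weight, on alternating pairs of days. The 3 mice of the WD + Vehicle group received vehicle, which the sample labels call PBS. Both groups had the same diet. The labels give neither age nor sex, and the study used mice of both sexes. Transcripts of the Y-linked *Ddx3y* were abundant in all 6 libraries, at 1802 to 2241 normalized counts, while *Xist* lay between 0 and 6.24.

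SLC25 proteins are the carriers of the inner mitochondrial membrane. Most exchange a metabolite of the cytosol for one of the matrix, and together they pass ADP, ATP, phosphate, carboxylates, amino acids, cofactors and iron across a membrane that is otherwise closed to them. In the beating heart, whose ATP comes almost wholly from mitochondria, the traffic through the ADP/ATP carrier and the phosphate carrier is intense. A few family members sit elsewhere, such as SLC25A17 in peroxisomes and SLC25A46 in the outer mitochondrial membrane.

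The libraries held 20369746 to 32734485 counts. Transcripts of the mitochondrial genome took 23.6 to 26.5% of the counts with vehicle and 25.9 to 28.8% with Tributyrin (two-sided exact permutation test, p = 0.2). Summed normalized counts of 8 ventricular cardiomyocyte markers ranged from 1413525 to 1558363 and overlapped between the groups, although 3 of the 8 had an unadjusted p under 0.05. So did 2 of 7 fibroblast markers and 2 of 6 markers of smooth muscle and pericytes. Of 6 atrial markers 5 could be tested, and all 5 had lower values with Tributyrin, 4 of them at an unadjusted p under 0.05. Their sum over the list was 4788, 4540 and 1414 in the vehicle mice and 815.4, 1687 and 1219 in the Tributyrin mice, so that vehicle replicates 1 and 2 stood apart. The defining atrial light chain *Myl7* was measured at 1746, 1483 and 110.6 with vehicle and at 193.6, 479.7 and 197.3 with Tributyrin. In whole tissue, fewer cells of a type and less RNA per cell cannot be told apart.

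Carrier transcripts spanned a wide range of levels. Per exonic length, in TPM (transcript abundance scaled to the same total in each library), *Slc25a4* stood first with a mean of 5016 ± 170 (SD over the 6 mice), which was 7.32 times the level of the next gene. *Slc25a4* encodes the ADP/ATP carrier of heart and muscle. It was followed by *Slc25a3*, the phosphate carrier, at 685.0 ± 22.6 TPM, and by *Slc25a11*, the oxoglutarate carrier, at 657.8 ± 31.9 TPM. The ranges of *Slc25a3* and *Slc25a11* overlapped, with *Slc25a3* higher in 5 of 6 mice. With the length of the longest protein-coding transcript in place of all exons *Slc25a3* came to 1909 TPM, still below *Slc25a4* but by 2.60 times, and *Slc25a11* to 659.6 TPM. *Slc25a5* (256.1 TPM), *Slc25a34* (206.4 TPM) and *Slc25a39* (107.6 TPM) completed the 6 carriers above 100 TPM, and from *Slc25a11* to *Slc25a39* the ranges of neighbours did not overlap. *Slc25a13* and *Slc25a12*, at 87.3 and 86.5 TPM, could not be ordered. *Slc25a42* (47.7 TPM) and *Slc25a46* (36.1 TPM) closed the 10 highest. Below *Slc25a46*, the ranges of most neighbours overlapped, and 14 carriers in all were between 10 and 100 TPM, 16 between 1 and 10 TPM and 9 at 1 TPM or less.

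**Figure D1:**
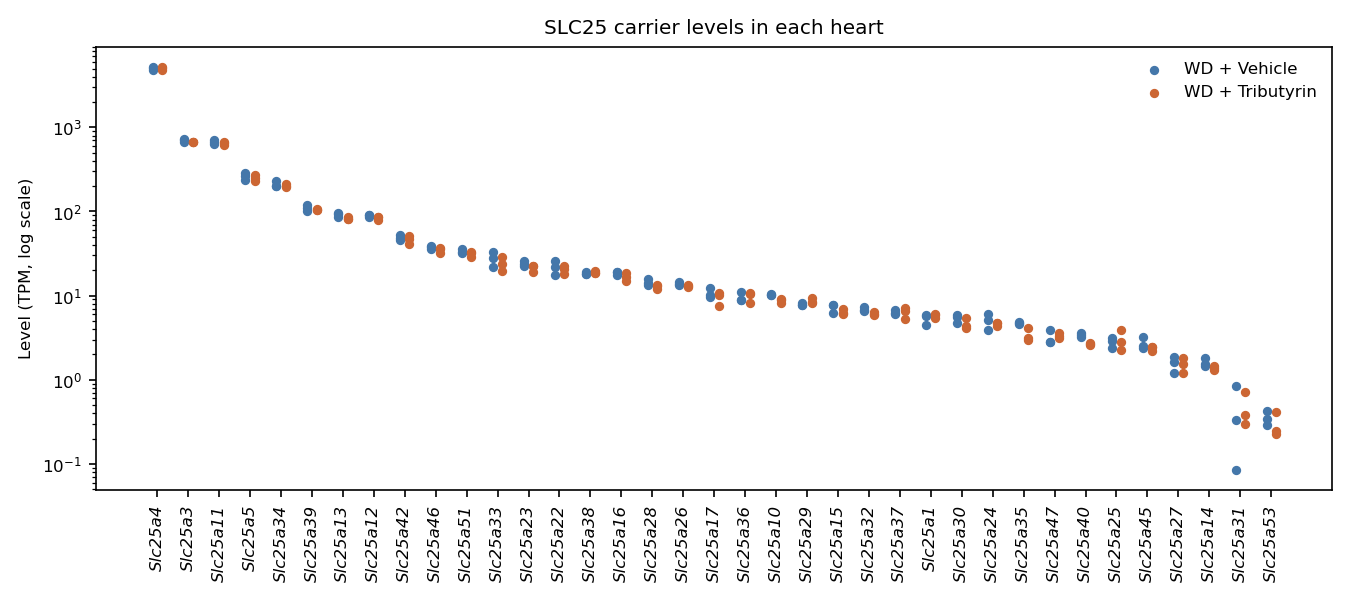
Level of each SLC25 carrier in each mouse, in TPM on a log axis, with genes ordered by their mean over the 6 mice; blue points are WD + Vehicle and orange points WD + Tributyrin, and only carriers counted in every mouse are shown. *Slc25a4* lies apart at 5016 TPM, and the points of the groups lie close together for most genes.

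At this depth 38 of the 45 carriers had a count in every library, and 2 had none in any. These were *Slc25a41*, a relative of the ATP-Mg/phosphate carriers, and *Slc25a54*. A count of 0 allows up to 0.0916 CPM (counts scaled to the library total) in the deepest library and 0.147 in the shallowest, taking 3 counts as the limit and covering counting error only. Low counts kept 8 genes from the test. Besides those at 0, *Slc25a48* had 2 counts in vehicle replicate 1 and no others, *Slc25a21* had 1 and 4 counts in 2 Tributyrin mice, and *Slc25a2*, *Slc25a18* and *Slc25a43* had between 0 and 4 counts per library. *Slc25a31*, the ADP/ATP carrier known from testis, had 2, 25 and 6 counts with vehicle and 8, 10 and 17 with Tributyrin.

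The question of the comparison was whether Tributyrin changed carrier transcripts in the hearts of WD-fed mice. It was tested with edgeR's quasi-likelihood test over the 14133 genes with enough counts, which held 37 of the carriers. At an FDR of 10% 0 carriers were called, as were 0 of all genes (0.0%), and the smallest adjusted p of a carrier was 0.999. DESeq2 also called 0 carriers, with 11 calls among all genes, and limma-voom called 0 of either. An unadjusted p under 0.05 was found for 2 carriers (5.41% of 37), both lower with Tributyrin, against 4.25% of all genes (1.97% higher and 2.28% lower), so that the share among carriers was near the background. At that threshold DESeq2 gave 0 carriers and 1.80% of all genes, and limma-voom gave 2 carriers and 4.28%. The DESeq2 fit had no filter on low counts and so covered 25581 genes, 43 of them carriers. Its share is thus not over the same genes as those of edgeR and limma-voom. The groups did not overlap in normalized counts for 4 carriers (10.8%), again close to the 8.91% of all genes.

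Of the 37 carriers, 21 had a log2 fold change above 0 (56.8%, against 49.6% of all genes) and 16 below, but when library size alone set the scale the split was 10 above and 27 below. The median log2 fold change was 0.02 (all genes 0.00), and -0.05 with library size alone (all genes -0.07). Single carriers ran from -0.35 to 0.25 on the log2 scale. The 95% confidence interval lay within 0.5 of 0 on the log2 scale for 29 of the 37 carriers and within 0.3 for 16, while all 37 lay within 1.

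**Figure D2:**
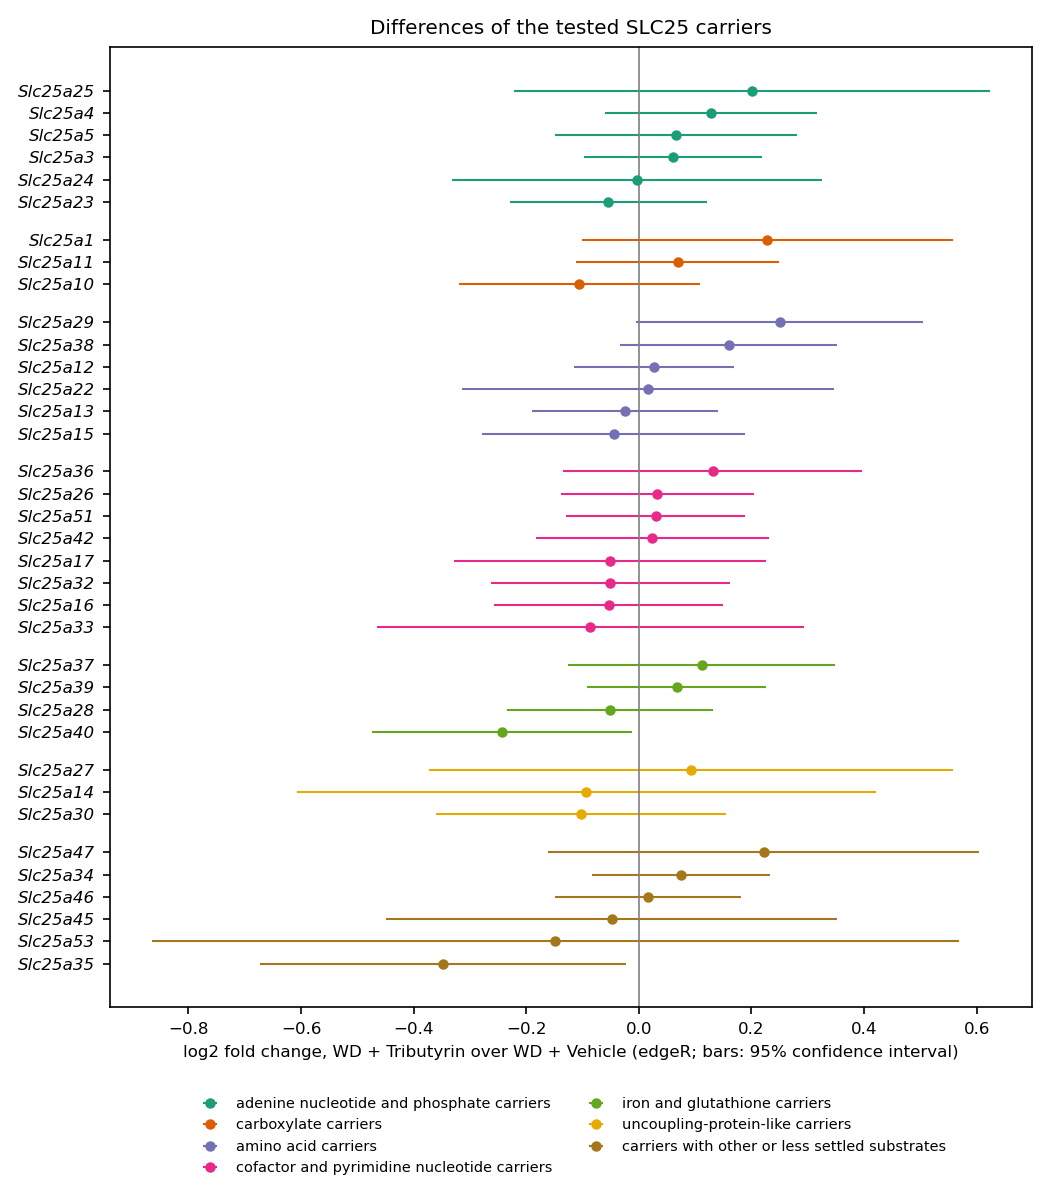
Log2 fold change of tested SLC25 carriers, WD + Tributyrin over WD + Vehicle, with the 95% confidence interval from edgeR as bars and colours for the role groups. The intervals of *Slc25a35* and *Slc25a40* lie below 0, those of the other carriers shown include 0, and 0 carriers passed an FDR of 10%.

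Adenine nucleotide and phosphate carriers made up 80.3% of the summed TPM of the family, and 6 of these 8 genes were tested, 4 above 0 and 2 below. *Slc25a4* (ENSMUSG00000031633, GRCm38 chromosome 8, 46206797 to 46211284, minus strand) was counted at 131209.8, 131010.5 and 126966 in the vehicle mice and at 141059, 126808 and 157147 in the Tributyrin mice, after scaling of the libraries. Tributyrin replicates 1 and 3 lay above every vehicle mouse and replicate 2 lay below them all. The log2 fold change was 0.13 (SE 0.085, 95% confidence interval -0.06 to 0.32, unadjusted p = 0.162). Without Tributyrin replicate 2 it was 0.20 with an unadjusted p of 0.0115, and without replicate 3 it was 0.05 with 0.520. Mitochondrial genome transcripts were also lower in that mouse, at 25.9% of counts, than in the other Tributyrin mice, at 27.7 and 28.8%. Their part in the value of *Slc25a4* was not tested.

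*Slc25a3* had 43351, 42080 and 42738 normalized counts with vehicle and 44703, 41474 and 47431 with Tributyrin. Again Tributyrin replicates 1 and 3 were the highest and replicate 2 the lowest of the 6 mice, and the log2 fold change was 0.06 (SE 0.071). *Slc25a5*, the ADP/ATP carrier found in most dividing and non-muscle cells (ENSMUSG00000016319, chromosome X), was at 4476, 5026 and 4688 with vehicle and at 4559.5, 4559 and 5734 with Tributyrin. Only Tributyrin replicate 3 lay outside the vehicle range, and the log2 fold change was 0.07 (SE 0.097). Within each library, the TPM of *Slc25a4* was 18.2 to 21.6 times that of *Slc25a5*. The log2 ratio of their counts was 4.78 ± 0.086 with vehicle and 4.84 ± 0.095 with Tributyrin (SD, n = 3), a difference of 0.06 (SE 0.074, two-sided exact permutation test, p = 0.5), and the groups overlapped.

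The calcium-regulated ATP-Mg/phosphate carriers exchange adenine nucleotides for phosphate and so set the nucleotide pool of the matrix. *Slc25a23* was the most abundant per length, with 22.7 TPM, and had 1454, 1471 and 1283 normalized counts with vehicle and 1412, 1347 and 1293 with Tributyrin. *Slc25a24* (4.85 TPM) had 157.0, 190.8 and 223.6 with vehicle and 176.7, 183.7 and 208.8 with Tributyrin. *Slc25a25* (2.90 TPM) had 266.1, 266.0 and 198.8 with vehicle and 370.3, 244.9 and 226.0 with Tributyrin. The groups overlapped in all of these, and *Slc25a25* was widest because of Tributyrin replicate 1. Its log2 fold change was 0.20 (SE 0.191) for the gene and -0.05 without that mouse. Exons of *Slc25a25* overlap *Naif1* on the opposite strand, which reached 197 counts, against at least 160 for *Slc25a25*. With the strand option of the counting unknown, the part of this overlap in the values of *Slc25a25* was not tested.

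The promoters of the ADP/ATP carrier pair are shown because the genes encode the same activity at very different levels. Each line gives the 250 bases before the RefSeq start site in GRCm38.p6, from chr8:46211063-46211312 on the minus strand for *Slc25a4* and from chrX:36795347-36795596 on the plus strand for *Slc25a5*, with matches to a CCAAT box or a GC box (GGGCGG, either strand) in capitals. GENCODE places the outer end of *Slc25a4* inside this window.
Slc25a4: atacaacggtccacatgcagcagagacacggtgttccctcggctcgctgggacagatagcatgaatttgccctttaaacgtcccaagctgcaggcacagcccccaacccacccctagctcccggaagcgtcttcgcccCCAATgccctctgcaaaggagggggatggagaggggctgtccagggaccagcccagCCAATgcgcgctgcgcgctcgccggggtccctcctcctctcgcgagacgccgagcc
Slc25a5: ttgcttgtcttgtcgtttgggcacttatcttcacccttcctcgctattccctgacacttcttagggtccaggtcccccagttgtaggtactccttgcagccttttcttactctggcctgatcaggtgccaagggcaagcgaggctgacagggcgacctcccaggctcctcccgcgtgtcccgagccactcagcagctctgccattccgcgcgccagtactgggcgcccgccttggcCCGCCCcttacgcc
*Slc25a4* held a pair of CCAAT matches on the sense strand, whose first bases lay 112 and 56 bases before the start, and no GC box match. *Slc25a5* held a single GC box match, on the reverse strand, 14 bases before the start. Neither held the TATAAA letters.

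Among the carboxylate carriers 3 of 4 were tested. *Slc25a11*, which exchanges malate for oxoglutarate in the malate-aspartate shuttle (ENSMUSG00000014606, chromosome 11, 70644196 to 70647479, minus strand), had 15727, 16005 and 15167 normalized counts with vehicle and 17101, 14529 and 17548 with Tributyrin. As in *Slc25a4*, Tributyrin replicate 2 was below all vehicle mice and the other Tributyrin mice above them, and the log2 fold change was 0.07 (SE 0.081) and -0.01 with library size alone. Its exons overlap *Rnf167* on the opposite strand, which reached 1397 counts, and the strand setting of the counting is not given in the sources used here. *Slc25a1* encodes the citrate carrier, which exports citrate for lipid synthesis (ENSMUSG00000003528, chromosome 16, 17925223 to 17928219, minus strand). It had 142.4, 138.0 and 104.4 normalized counts with vehicle and 153.4, 147.1 and 152.6 with Tributyrin. The groups did not overlap, by the gap between 142.4 and 147.1, and vehicle replicate 3 was the low one. The log2 fold change was 0.23 (SE 0.149, unadjusted p = 0.155) and 0.11 without that mouse. *Slc25a10*, the dicarboxylate carrier, had overlapping groups, with 390.2 ± 24.1 normalized counts with vehicle and 362.3 ± 16.8 with Tributyrin (SD, n = 3) and a log2 fold change of -0.11 (SE 0.097).

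Of the 8 amino acid carriers 6 were tested, 4 above 0 and 2 below. The aspartate/glutamate carriers of the malate-aspartate shuttle, *Slc25a12* (aralar) and *Slc25a13* (citrin), were present at about equal levels per length, and the TPM ratio of *Slc25a12* to *Slc25a13* was 0.957 to 1.06 in the 6 mice. *Slc25a12* had 7207, 7235 and 7180 normalized counts with vehicle, the narrowest spread of all tested carriers in that group at 0.387% of the mean, and 7455, 7057 and 7506 with Tributyrin. That spread was below the counting error, which reached 1.3% in the vehicle mice, and so cannot be read as a trait of the gene. *Slc25a13* had 3769, 3912 and 3822 with vehicle and 3925, 3430 and 3946 with Tributyrin. In both, Tributyrin replicate 2 was the lowest of the 6 mice and the other Tributyrin mice were the highest, with log2 fold changes of 0.03 (SE 0.064) and -0.03 (SE 0.074).

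*Slc25a29* carries basic amino acids such as arginine and lysine (ENSMUSG00000021265, chromosome 12, 108825873 to 108835883, minus strand). Its normalized counts were 231.8, 229.5 and 217.4 with vehicle and 287.1, 236.6 and 284.5 with Tributyrin. In normalized counts all Tributyrin mice were above all vehicle mice, replicate 2 only just. With counts scaled to the library total, Tributyrin replicate 2 fell just below vehicle replicate 2, and the groups overlapped. The log2 fold change was 0.25, the highest among tested carriers (SE 0.115, 95% confidence interval -0.0046 to 0.50, unadjusted p = 0.0536). With library size alone it was 0.18, at an unadjusted p of 0.146 in edgeR. Without Tributyrin replicate 2 the log2 fold change was 0.34 with an unadjusted p of 0.0151, and without replicate 1 or 3 it was 0.205 or 0.21 with 0.157 or 0.119. *Slc25a22*, a glutamate carrier, had 1808, 1118 and 1408 normalized counts with vehicle and 1614, 1377 and 1380 with Tributyrin, and vehicle replicates 1 and 2 enclosed all other mice. Its relative *Slc25a18* had 1, 0 and 4 raw counts with vehicle and 4, 2 and 0 with Tributyrin, too few for a ratio. Exons of *Slc25a18* overlap *Atp6v1e1* on the opposite strand, which reached 3058 counts, and the part of this overlap was not tested. *Slc25a38*, the glycine carrier of heme synthesis, and *Slc25a15*, the ornithine carrier of the urea cycle, had log2 fold changes of 0.16 (SE 0.087) and -0.04 (SE 0.105).

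All 9 carriers of cofactors and pyrimidine nucleotides were tested, 5 above 0 and 4 below, between -0.09 and 0.13 on the log2 scale, with overlapping groups throughout. *Slc25a42*, a carrier of coenzyme A, had 3647, 2987 and 3137 normalized counts with vehicle and 3630, 3135 and 3163 with Tributyrin, and in each group replicate 1 was the highest. *Slc25a36* and *Slc25a33* both carry pyrimidine nucleotides. *Slc25a36* had 1219, 918.9 and 919.4 with vehicle and 1189, 1158 and 995.7 with Tributyrin, a log2 fold change of 0.13 (SE 0.120), which was 0.28 (unadjusted p = 0.0214) without vehicle replicate 1, the highest mouse, but 0.06 without vehicle replicate 2 and 0.07 without vehicle replicate 3. *Slc25a33* had 482.3, 674.6 and 566.5 with vehicle and 435.8, 500.7 and 695.2 with Tributyrin, a log2 fold change of -0.09 (SE 0.171). Per length, *Slc25a33* was the higher of the pair in every mouse, with TPM ratios of *Slc25a36* to *Slc25a33* of 0.268 to 0.537 (mean levels 0.374, and 0.688 with the longest protein-coding transcript). The carriers of NAD (*Slc25a51*, 32.5 TPM) and S-adenosylmethionine (*Slc25a26*, 13.5 TPM) each had a log2 fold change of 0.03, and both were below 0 with library size alone. *Slc25a16*, *Slc25a17* and *Slc25a32*, the latter a carrier of folate and FAD, each had -0.05. Exons of *Slc25a26* overlap *Lrig1* on the opposite strand, which reached 2019 counts, against at least 568 for *Slc25a26*. With the strand option of the counting unknown, the part of this overlap in the level and fold change of *Slc25a26* was not tested.

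Iron and glutathione carriers were all tested, 2 above 0 and 2 below. *Slc25a39* imports glutathione, and *Slc25a40* is its close relative. *Slc25a40* (ENSMUSG00000054099, chromosome 5, 8422850 to 8454797, plus strand) had 329.5, 326.4 and 289.5 normalized counts with vehicle and 271.2, 252.2 and 276.5 with Tributyrin. Each Tributyrin mouse was below each vehicle mouse. The log2 fold change was -0.24 (SE 0.104, 95% confidence interval -0.47 to -0.01, unadjusted p = 0.0404, adjusted p = 0.999). Under the alternatives that kept all mice, its log2 fold change was lowest at -0.32 (library size alone) and highest at -0.19 (a covariate for atrial transcripts, unadjusted p = 0.175). *Slc25a39* (ENSMUSG00000018677, chromosome 11, 102402985 to 102407946, minus strand) had 3247, 3516 and 3203 normalized counts with vehicle and 3442, 3331 and 3667 with Tributyrin, with overlapping groups and a log2 fold change of 0.07 (SE 0.072).

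The ratio within a library needs no scaling between libraries, and for *Slc25a39* over *Slc25a40* it separated the groups. The log2 ratio of counts was 3.30, 3.43 and 3.46 with vehicle and 3.66, 3.72 and 3.73 with Tributyrin. The Tributyrin mice lay within 0.06 of each other and above every vehicle mouse. The difference was 0.31 (SE 0.054), with p = 0.1 in the two-sided exact permutation test, the smallest that 3 mice against 3 allow, and 0.733 after Benjamini-Hochberg adjustment over 11 pairs. Leaving out single mice gave differences of 0.26 to 0.34. Per length, *Slc25a39* was up to 33.7 times as abundant as *Slc25a40* with vehicle and at least 38.6 times with Tributyrin. The fold rests on the length used, since over all mice it was 35.4 with exonic length and 19.2 with the longest protein-coding transcript. The pair was set as 1 of the 11 by relatedness of the proteins, with earlier results of these mice known. In the other 10 pairs the groups overlapped. Ratios of other gene pairs were not taken, so whether 1 of 11 exceeds a background was not tested. On the other scale of normalized counts of single genes, the groups did not overlap for 8.91% of all genes. *Slc25a40* by itself was among these, so the ratio is not independent of its lower counts.

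The promoters of this pair are shown since it was the pair whose balance separated the groups. They are the 250 bases before the RefSeq start site in GRCm38.p6, from chr11:102407518-102407767 on the minus strand for *Slc25a39* and from chr5:8422588-8422837 on the plus strand for *Slc25a40*, with GC box matches on either strand in capitals. GENCODE places the outer end of *Slc25a39* upstream of this window.
Slc25a39: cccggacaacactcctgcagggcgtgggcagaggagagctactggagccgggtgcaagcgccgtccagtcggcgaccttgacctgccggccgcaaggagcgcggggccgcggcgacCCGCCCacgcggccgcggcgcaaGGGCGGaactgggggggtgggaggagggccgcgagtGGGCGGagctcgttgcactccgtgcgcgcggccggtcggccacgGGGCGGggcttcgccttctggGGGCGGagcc
Slc25a40: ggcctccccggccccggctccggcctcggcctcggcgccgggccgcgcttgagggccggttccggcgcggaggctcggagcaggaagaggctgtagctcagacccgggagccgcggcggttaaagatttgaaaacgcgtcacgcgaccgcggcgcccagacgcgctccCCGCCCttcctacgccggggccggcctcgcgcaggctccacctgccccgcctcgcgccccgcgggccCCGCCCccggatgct
*Slc25a39* held 5 GC box matches, the nearest 10 bases before the start, and *Slc25a40* held 2, at 82 and 15 bases. Both windows are rich in G and C, at 77.2 and 78.0% of bases, against 64.8% for *Slc25a4* and 61.6% for *Slc25a5*.

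The mitoferrins *Slc25a37* and *Slc25a28* bring iron into the matrix, *Slc25a37* above all in erythroid cells. *Slc25a28* had 581.0, 564.5 and 626.2 normalized counts with vehicle and 573.2, 561.0 and 573.6 with Tributyrin. *Slc25a37* had 437.6, 393.9 and 437.3 with vehicle and 509.6, 445.0 and 411.8 with Tributyrin. Both overlapped between the groups, as did their ratio, whose log2 difference was -0.155 (SE 0.096, two-sided exact permutation test, p = 0.2). Tributyrin replicate 1, the highest in *Slc25a37*, also had the highest summed erythroid markers, at 24765 normalized counts against 10044 to 18295 in the other mice. Their part in the value of *Slc25a37* was not tested.

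The 3 uncoupling-protein-like carriers were low and overlapped between the groups. *Slc25a30* had 249.5, 287.7 and 270.8 normalized counts with vehicle and 226.3, 274.1 and 252.4 with Tributyrin. *Slc25a14* had 39.5, 46.5 and 38.5 with vehicle and 36.5, 36.6 and 44.7 with Tributyrin. *Slc25a27*, known from brain, had 67.5 ± 11.7 with vehicle and 71.5 ± 12.4 with Tributyrin (SD, n = 3). Their log2 fold changes were -0.10, -0.09 and 0.09, with standard errors of 0.116 to 0.231.

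Carriers whose substrates are other or less settled numbered 9, of which 6 were tested, 3 above 0 and 3 below. *Slc25a34* and *Slc25a35* are close relatives. *Slc25a34* was the fifth of the family by level, at 6182, 6558 and 5722 normalized counts with vehicle and 6391, 6433 and 6612 with Tributyrin, with a log2 fold change of 0.07 (SE 0.071). *Slc25a35* (ENSMUSG00000018740, chromosome 11, 68968131 to 68974365, plus strand) was far lower per length, at 4.04 TPM. It had 194.4, 186.1 and 188.8 normalized counts with vehicle and 179.5, 127.9 and 138.8 with Tributyrin. The vehicle mice lay close together and above every Tributyrin mouse, of which replicate 1 came nearest.

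The log2 fold change of *Slc25a35*, -0.35, was the lowest among tested carriers (SE 0.147, 95% confidence interval -0.67 to -0.02, unadjusted p = 0.0382, adjusted p = 0.999). Without Tributyrin replicate 1 it was -0.50 and without replicate 2 it was -0.25. The atrial markers were also lower with Tributyrin, and a covariate for atrial transcripts gave a log2 fold change of -0.38 with an unadjusted p of 0.0648. The part of atrial content in the value of *Slc25a35* was not tested further. *Slc25a46* had 2364, 2271 and 2057 normalized counts with vehicle and 2327, 2231 and 2207 with Tributyrin, and the Tributyrin mice lay within the vehicle range. *Slc25a47*, known from liver, *Slc25a45* and *Slc25a53* had log2 fold changes of 0.22 (SE 0.172), -0.05 (SE 0.180) and -0.15 (SE 0.323), of which *Slc25a53*, at 20.1 to 39.5 normalized counts, was the least precise of the carriers tested.

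**Figure D3:**
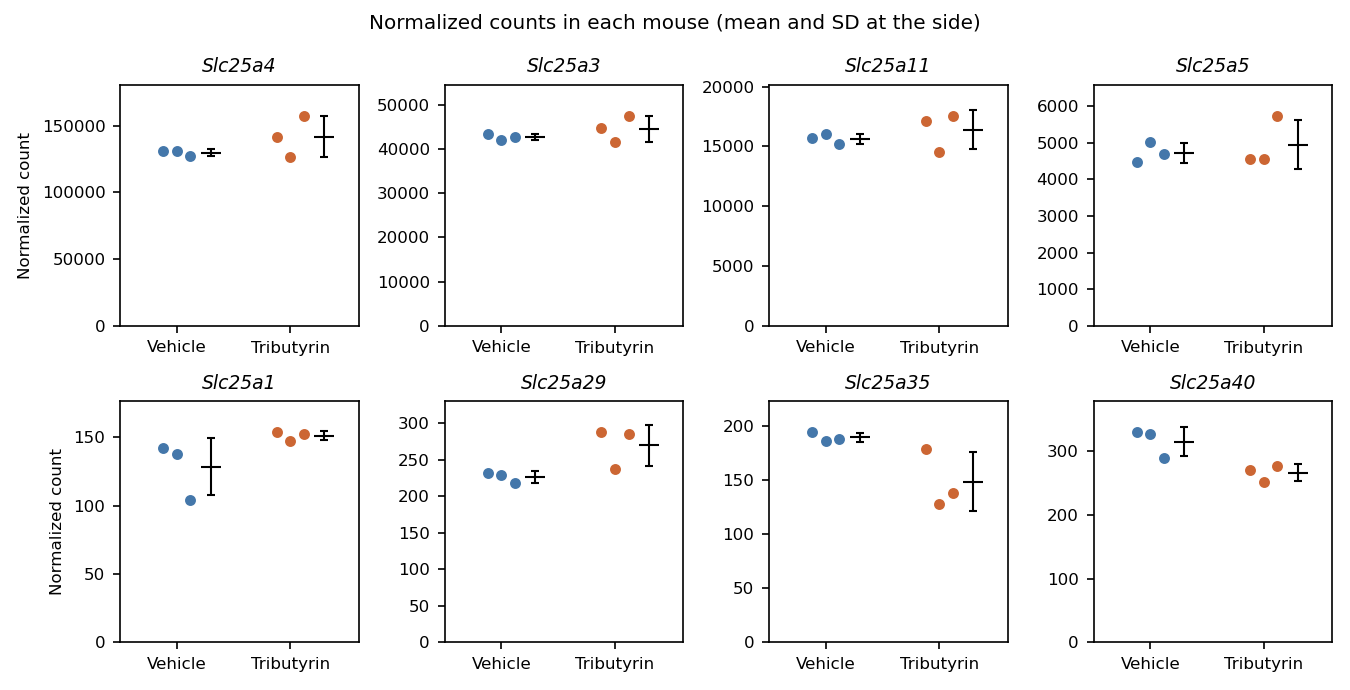
Normalized counts in each mouse for the carriers *Slc25a4*, *Slc25a3*, *Slc25a11* and *Slc25a5* (top) and for the 4 carriers whose groups did not overlap (bottom), with the mean and SD (n = 3) beside the points and axes from 0. In the bottom row *Slc25a1* and *Slc25a29* are higher and *Slc25a35* and *Slc25a40* lower in all Tributyrin mice, while in the top row the groups overlap.

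Of the 4 carriers without overlap, 2 were higher with Tributyrin (all genes 4.26%) and 2 lower (all genes 4.65%). With counts scaled to the library total, 5 carriers did not overlap, 1 higher and 4 lower, against 11.5% of all genes. Tributyrin replicate 2 was often low within its group. It was the lowest of the 3 Tributyrin mice for 23 of the 37 tested carriers, and the highest of the 6 mice for 0, whereas replicate 3 was the highest of the 6 for 13. Among the vehicle mice, replicate 3 was the lowest for 18. Such counts were not made over all genes, so whether they are particular to the carriers was not tested. Leaving out replicate 2 brought 4 carriers to an unadjusted p under 0.05, *Slc25a4*, *Slc25a11*, *Slc25a29* and *Slc25a38*, all higher with Tributyrin and the last chosen for mention after its values were seen. The same step raised the share of all genes at that threshold to 9.56%, and 0 carriers passed an FDR of 10%. Among the vehicle mice the spread of the tested carriers had a median of 7.04% of the mean, and among the Tributyrin mice 8.89%.

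**Figure D4:**
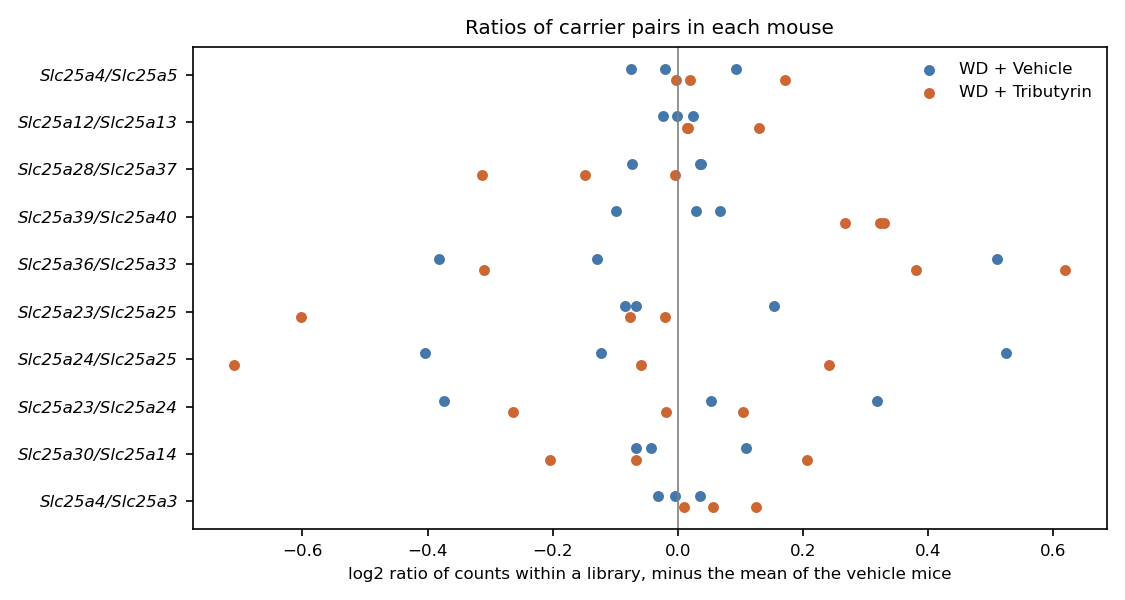
Log2 ratio of the counts of 10 related carrier pairs in each mouse, minus the mean of the vehicle mice, with WD + Vehicle in blue and WD + Tributyrin in orange; the pair of *Slc25a22* and *Slc25a18* is left out for its low counts. Only *Slc25a39*/*Slc25a40* separates the groups, by 0.31 on average.

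As a share of the summed TPM of the 45 carriers, *Slc25a4* took 66.9, 66.6 and 66.7% with vehicle and 67.5, 67.1 and 68.8% with Tributyrin. The vehicle mice lay within a narrow span, and each Tributyrin mouse was above it. The difference was 1.075 percentage points, with p = 0.1 in an exact permutation test (two-sided) and 0.563 after adjustment over the 45 shares. It was 0.574 without Tributyrin replicate 3. The same p values were found for the shares of 7 other carriers, of which *Slc25a29* had a higher share with Tributyrin and *Slc25a10*, *Slc25a13*, *Slc25a14*, *Slc25a32*, *Slc25a35* and *Slc25a40* a lower one. Shares within a library sum to a fixed total, so that those of the other carriers are not independent of that of *Slc25a4*. Such shares were not taken for genes outside the family, so whether 8 of 45 exceeds a background was not tested. On the other scale of normalized counts, the groups did not overlap for 8.91% of all genes. The 5 highest carriers together took 91.2 to 92.3% in the 6 mice. Summed over the family, TPM was 7519 ± 291 with vehicle and 7396 ± 199 with Tributyrin (SD, n = 3), a difference within the spread of either group (exact permutation test, two-sided, p = 0.5). When TPM was taken over nuclear genes only, the sums were 14216 and 14916, and the sign of the difference turned (exact permutation test, two-sided, p = 0.2).

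In promoters of 250 bases, 35 of the 45 carriers matched a RefSeq entry. The GC box (GGGCGG, either strand) was found in 23 of them (65.7%, against 32.9% of 27025 promoters) and the CCAAT box (CCAAT, either strand) in 16 (45.7%, against 34.5%). Against the promoters of genes tested in these hearts, the shares were closer for the GC box, with 72.4% of 29 tested carriers against 58.4%, and stood at 51.7% against 35.9% for the CCAAT box. The TATA letters (TATAAA) were found in 1 carrier promoter (2.86%, against 13.0%), the NRF1 core (GCATGCGC) in 2 (5.71%, against 2.32%) and the estrogen-related receptor site (AAGGTCA) in 1 (2.86%, against 4.05%), all on either strand. Among tested genes the order turned for the NRF1 core, in 0 of 29 carriers against 4.37%, and for the receptor site, in 3.45% against 2.77%, while the TATA letters were in 0 of 29 against 6.66%. No motif here contains the letters of another, and a match does not locate a bound factor.

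Genes that work beside the carriers gave a similar picture, with 0 at an unadjusted p under 0.05 in any of 5 lists. Among all genes tested 49.6% had a log2 fold change above 0. The signs in these lists were not compared with library size alone as the scale, where the signs of some carriers turned. The 4 enzymes of the malate-aspartate shuttle, whose metabolites *Slc25a11*, *Slc25a12* and *Slc25a13* carry, all had log2 fold changes above 0, with a median of 0.08. The most abundant were *Mdh1* (1751 TPM) and *Mdh2* (810.8 TPM), with 0.09 (SE 0.074) and 0.06 (SE 0.070). Of 5 tested genes of the outer membrane channel and the mitochondrial creatine kinase, 4 were above 0, among them *Ckmt2* (2941 TPM), which passes the energy of exported ATP to creatine, with 0.13 (SE 0.079), and the channel *Vdac1* (792.1 TPM), with 0.11 (SE 0.068). *Vdac1* had 22789, 22803 and 23206 normalized counts with vehicle and 24964, 23277 and 25869 with Tributyrin, and so did not overlap, at an unadjusted p of 0.140.

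Other transport proteins of the inner membrane were divided, 7 of 14 above 0 and 7 below. The calcium uniporter regulator *Smdt1* (122.9 TPM) and the pyruvate carrier subunit *Mpc2* (108.9 TPM) led by level, with log2 fold changes of 0.13 (SE 0.101) and 0.14 (SE 0.095). The list for the import of carriers into mitochondria had 7 of 12 genes above 0 and a median of 0.01, with *Timm8b* (235.0 TPM) at 0.14 (SE 0.104) and *Timm10* (103.3 TPM) at -0.02 (SE 0.098). Family genes outside the rule had 3 of 6 above 0. *Slc25a20*, the carnitine/acylcarnitine carrier, was the most abundant of them at 117.8 TPM, with 0.13 (SE 0.086), and *Mtch1* followed at 52.5 TPM with -0.03 (SE 0.080). *Ucp1*, the uncoupling protein of brown fat, had 0 counts in all 6 libraries.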

How the data were processed

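Heart ventricle mRNA was measured in 3 WD + Tributyrin and 3 WD + Vehicle mice. The values used are read counts per Ensembl gene, which the authors deposited without normalization. Per the submitters' processing notes and the methods, adapters were trimmed with cutadapt 1.13, reads aligned to mm10 with STAR and counted with HTSeq 0.6.1p1, and 0 rows name no gene. Neither the STAR version nor the annotation release or strand option of the counting is named in the sources used here. No library pair differed by as little as sampling noise.

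Counts were tested with edgeR 4.0.16 (R 4.3.3) by the quasi-likelihood test, with TMM scaling and without covariates, after filterByExpr at a count of 10 and a total of 15, with Benjamini-Hochberg adjustment over all genes tested, at an FDR of 10% and 5%. Normalized counts are counts divided by DESeq2 1.42.0 size factors. TPM used exonic lengths of GENCODE M21, which matched 54165 identifiers. Ratios of a pair had 0.5 added to each count. Alternatives included limma-voom (limma 3.58.1), DESeq2, other scalings and filters, the replicate number as a block and each mouse left out. The atrial covariate and TPM over nuclear genes were added after the data were seen. Steps were tested on simulated data.

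Values in every mouse were given by rule for the 10 carriers highest by TPM, those with an unadjusted p under 0.05, those without overlap and those in pairs. The carriers and lists were chosen with earlier results of these data known. Values of 1 tested carrier, which stays in the counts of carriers, are not reported here. Chow and fecal transplant groups were not analysed here.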

Additional observations from a re-analysis of the deposited data

How the results depend on the processing

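In every alternative 0 carriers passed an FDR of 10%, while 167 of all genes did with no filter on low counts and 11 with DESeq2, and the smallest adjusted p of a carrier was 0.404, without Tributyrin replicate 2. The number of carriers with an unadjusted p under 0.05 went from 2 to 1 with no filter on low counts, with the replicate block and with the atrial score as a covariate (there *Slc25a1*, at a log2 fold change of 0.39), and to 0 with DESeq2; the cause was not tested. With 1 mouse left out it was 0 to 4, with 0 without vehicle replicate 2, 4 without Tributyrin replicate 2 and 1 when any of the other 4 mice was left out. The median log2 fold change moved to -0.046 with library size alone, where the median of all genes was -0.074. Summed TPM differed by -123.4 between the groups, by 700.3 over nuclear genes, since this leaves out the mitochondrial share, and by -279.2 to 9.39 with 1 mouse left out. Deviations from the group means of mice with the same replicate number had correlations of 0.21, 0.04 and 0.02. Mice with unlike numbers were not compared, so these values cannot decide whether the numbers pair the mice. The replicate block called 2 of all genes at an FDR of 10%.

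With library size alone the log2 fold change turned to -0.0135 for *Slc25a3*, -0.0109 for *Slc25a5*, -0.0057 for *Slc25a11*, -0.0464 for *Slc25a12*, -0.0523 for *Slc25a22*, -0.0401 for *Slc25a26*, -0.0067 for *Slc25a39*, -0.046 for *Slc25a42*, -0.0548 for *Slc25a46* and -0.0425 for *Slc25a51*. *Slc25a24* turned to 0.0018 without mitochondrial genome transcripts, 0.0090 with limma-voom and 0.0044 with the replicate block. The atrial covariate turned *Slc25a16* to 0.0041, *Slc25a23* to 0.0111 and *Slc25a27* to -0.0397. Leaving out 1 mouse turned the sign of some log2 fold changes, whose lowest and highest values were *Slc25a22* -0.1424 to 0.2156, *Slc25a24* -0.1173 to 0.121, *Slc25a25* -0.0483 to 0.3336, *Slc25a27* -0.0475 to 0.2031, *Slc25a33* -0.2928 to 0.0556, *Slc25a42* -0.0425 to 0.1186, *Slc25a45* -0.1177 to 0.0705, *Slc25a46* -0.0368 to 0.0649, *Slc25a51* -0.0064 to 0.0571, *Slc25a13* -0.0547 to 0.0368, *Slc25a15* -0.1056 to 0.0187, *Slc25a53* -0.4686 to 0.0534, *Slc25a5* -0.0475 to 0.1274, *Slc25a17* -0.1394 to 0.0464, *Slc25a16* -0.1229 to 0.0121 and *Slc25a14* -0.1873 to 0.0031. Likewise the differences in log2 ratio were -1.153 to 0.606 for *Slc25a22*/*Slc25a18*, -0.383 to 0.092 for *Slc25a24*/*Slc25a25*, -0.245 to 0.1 for *Slc25a23*/*Slc25a24* and -0.136 to 0.069 for *Slc25a30*/*Slc25a14*, and those in share were -0.2009 to 0.04013 percentage points for *Slc25a5* and -0.1642 to 0.05944 percentage points for *Slc25a34*.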
